A study of Mus musculus with 8 samples.

Results

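Osteoblasts that line bone are joined to each other by gap junctions and adherens junctions, and 6 genes of these structures are described here. Gja1 encodes connexin 43 and Gjc1 encodes connexin 45, subunits of gap junction channels. Panx3 encodes pannexin 3, a channel protein that passes ATP and other small molecules. Cdh2 encodes N-cadherin and Cdh11 encodes cadherin-11, the main classical cadherins of osteoblasts. Ctnnb1 encodes β-catenin, which links cadherins to the actin skeleton and also acts in the nucleus as a partner of TCF and LEF factors in Wnt signalling. The genes were chosen by symbol for their roles, with earlier results of these data known. All 6 were found among the 24421 genes of the files, and all 6 were among the 12348 genes that passed the filter on low values, which asked for a group mean of 1 CPM or more, CPM being the deposited read counts scaled to a common depth.

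The libraries were made from poly-A+ RNA of cells digested from the calvarial bone of newborn C57BL/6 mice, either wild type (WT) or lacking Def6 (Def6-/-), which encodes a guanine nucleotide exchange factor. Cells of both genotypes were taken before (day 0) and 12 days after a change to osteogenic medium with ascorbic acid and β-glycerophosphate, with 2 libraries in each of the 4 groups. Def6 is missing from every cell of the mutant mice, so a difference between genotypes is not tied to the osteoblast. The study describes the pair of libraries in a group as biological replicates. How many animals a library holds, and whether the pair came from separate litters or cultures, is not given in the sources used here, and p-values measure the spread between these libraries.

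The libraries held between 2414856 and 3482837 reads on genes, which was 28.8% to 35.3% of all reads. Def6 had 112 to 186 reads in the 4 WT libraries and 0 to 2 in the 4 Def6-/- libraries. The label of osteoblastic cells was checked against 10 markers. Their summed level was 28804 to 44828 normalised CPM (CPM relative to reads on genes, with TMM factors) at day 0 and 80954 to 113215 at day 12, led at both times by the type I collagens. Bglap, the gene of osteocalcin made by mature osteoblasts, was at 0 in all 4 day 0 libraries and at 6.26 to 18.4 at day 12. Col1a1, Col1a2, Alpl, Ibsp, Dmp1 and Phex also lay higher in every day 12 library. Runx2, Sp7 and Spp1 overlapped between the days, with Spp1 at 2603 to 6702 at day 0 and 1958 to 3243 at day 12. The cultures were not of 1 cell type. The summed level of 11 macrophage markers was 172 to 384 at day 0 and 2817 to 5707 at day 12, and that of 6 chondrocyte markers was 1966 to 3942 at day 0 and 851 to 1229 at day 12. That of 6 adipocyte markers was 32.8 to 39.6 at day 0 and 293 to 409 at day 12. Muscle, endothelial and epithelial markers summed to at most 18.5, with Myod1, Myf5, Emcn, Tie1, Krt8 and Krt14 at 0 in every library, and 5 glial and neuronal markers summed to 14.4 to 68.3. The 2 WT libraries of day 0 stood apart from each other. The median gene differed between them by 0.50 on the log2 scale, against 0.18 to 0.22 between the libraries of the other groups, and the main results that rest on them are also given without one or the other.

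Gap junctions are plaques of channels that let ions and small metabolites pass directly between neighbouring cells. Connexin 43 is the most abundant connexin of bone cells and is needed for normal osteoblast function and mineralisation. Cadherins hold the membranes of neighbours together through their outer domains, while their tails bind β-catenin. Pannexins resemble connexins in fold but mostly form channels in the membrane of a single cell, and pannexin 3 is known from osteoblasts and from cartilage that is about to be replaced by bone.

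Sequence upstream of the start site was held by the RefSeq table (GRCm38.p6) for 2 of the 6 genes, Gja1 and Ctnnb1. These 250 bases are shown because they precede the more abundant connexin and the shared cadherin partner, and because their upstream regions differ in composition. Both run 5′ to 3′ on the plus strand, and capitals mark letters that match a searched motif.
Gja1, chr10:56377050-56377299: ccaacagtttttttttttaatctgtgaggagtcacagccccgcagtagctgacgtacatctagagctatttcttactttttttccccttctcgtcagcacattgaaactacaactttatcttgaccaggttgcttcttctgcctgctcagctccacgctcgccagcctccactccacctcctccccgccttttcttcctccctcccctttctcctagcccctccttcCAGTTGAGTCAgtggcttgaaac
Ctnnb1, chr9:120933150-120933399: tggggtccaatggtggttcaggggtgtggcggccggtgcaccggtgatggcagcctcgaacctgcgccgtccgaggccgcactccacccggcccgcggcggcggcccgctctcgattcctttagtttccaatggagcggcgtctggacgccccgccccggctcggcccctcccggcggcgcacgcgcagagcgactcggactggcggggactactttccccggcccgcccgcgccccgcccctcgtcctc
Motifs were searched on both strands in windows of 300 bases, which also hold the first 50 bases after the start. The window of Gja1 had 47.7% G and C, below the median of 52.7% over 32851 mouse windows, while the 2 windows of Ctnnb1, which has 2 start sites in the table, had 75.3% and 75.0%. The capitals in Gja1 are the E-box CANNTG, from base -23, and the AP-1 heptamer TGANTCA, from base -19, which share their middle letters. The E-box letters were in 72.3% of all windows and the AP-1 letters in 7.81%. Neither the RUNX core TGTGGT, in 16.8% of all windows, nor the TCF and LEF core CTTTGA, in 16%, was in the Gja1 window, and none of the 4 motifs was in either window of Ctnnb1.

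Compared per kilobase of the longest principal transcript, the 6 genes differed widely in level. At day 0 the order of levels was Ctnnb1, Cdh11, Gja1, Cdh2, Gjc1 and Panx3 in both genotypes. In WT cells their means at that time were 212, 152, 64.6, 21.9, 13.3 and 3.41 normalised CPM per kb. At day 12 Cdh11 stood first, at 333 in WT and 323 in Def6-/- cells, ahead of Ctnnb1 at 263 and 268. Panx3 left the last place at day 12. It stood at 16.2 in WT cells, between Cdh2 at 19.2 and Gjc1 at 8.40, and at 28.5 with Def6 deleted, above Cdh2 at 22.5 and Gjc1 at 10.1. In every group, the libraries of neighbours in this order did not overlap. With the union of all annotated exons as the length, which includes retained introns, 3 neighbouring pairs at day 12 overlapped. They were Panx3 and Cdh2 in WT cells, at 11.9 and 11.5, and in Def6-/- cells Cdh11 and Ctnnb1, at 205 and 187, and Gja1 and Panx3, at 24.1 and 21.0.

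**Figure D1:**
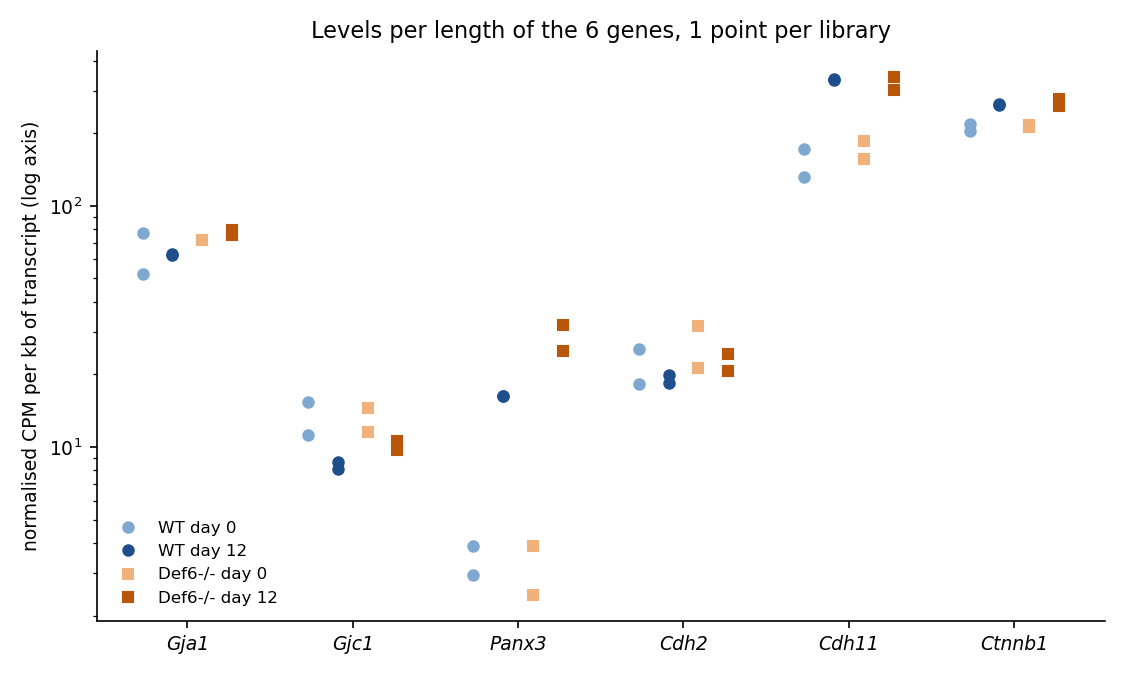
Levels of the 6 genes in normalised CPM per kb of transcript on a log axis, with 1 point per library and a colour for each genotype and day. Cdh11 and Ctnnb1 lie highest in every group, and Panx3 moves from 3.41 and 3.17 at day 0 to 16.2 and 28.5 at day 12 in WT and Def6-/- cells.

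All 6 are protein-coding genes, placed here by GENCODE vM21 on GRCm38, the build of the files under its name mm10. The connexin genes lie on chromosome 10 (Gja1, 56377330 to 56402513, plus strand) and chromosome 11 (Gjc1, 102799579 to 102819700, minus strand). Panx3 lies on chromosome 9 (37659902 to 37669235, minus strand), as does Ctnnb1 (120929216 to 120960507, plus strand), where an antisense gene and the oppositely transcribed Ulk4 overlap it. The cadherin genes lie on chromosome 18 (Cdh2, 16588877 to 16809246, minus strand) and chromosome 8 (Cdh11, 102632095 to 102785642, minus strand). Each value is for a whole gene, so isoforms were not distinguished.

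The question of the day comparison was how the junction genes differ between precursors and cells after 12 days of osteogenic culture. Panx3 and Cdh11 were called higher in both genotypes, and none of the 6 was called lower. Gjc1 lay lower at day 12 without overlap in both genotypes and was not called. In WT cells, 2 of 6 were called higher, against 12.1% of all genes tested, and 0 of 6 lower, against 6.61%, at a Benjamini-Hochberg adjusted p under 0.05 in limma. With Def6 deleted it was also 2 of 6 higher, against 11.0%, and 0 lower, against 6.20%. By the libraries alone, 3 of 6 genes in WT cells lay higher at day 12 in both libraries than in both of day 0, against 27.3% of genes, and 1 lay lower, against 28.9%. In Def6-/- cells 4 lay higher, against 31.2%, and 1 lower, against 37.6%.

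Panx3 had the largest change of the 6. In WT cells it was at 7.45 and 9.82 normalised CPM at day 0, from 19 and 27 reads, and at 41.0 in both libraries of day 12, from 144 and 100 reads. In Def6-/- cells it was at 6.17 and 9.86 at day 0, from 16 and 28 reads, and at 81.0 and 63.5 at day 12, from 202 and 153 reads. Every day 12 library lay above every day 0 library. Changes are given as log2(CPM + 1), where low genes appear to change less than they do. Panx3 rose by 2.13 ± 0.28 (SE, n = 2 libraries per group) in WT cells, with a limma adjusted p of 0.00135. The rise was 3.04 ± 0.28 in Def6-/- cells, with a limma adjusted p of 0.000274. The call held in all 19 alternatives in each genotype, at 1.76 to 2.31 in WT cells and 2.58 to 3.34 in Def6-/- cells. The osteoblast, macrophage, adipocyte and endothelial marker sums also lay higher at day 12 in both genotypes without overlap. The endothelial sum was at 7.45 to 13.4 and then 15.9 to 18.5. Of its markers, Tek alone lay higher without overlap, at 0 to 3.17 and then 5.74 to 9.13. The chondrocyte sum and that of glia and neurons, at 46.9 to 68.3 and then 14.4 to 23.7, lay lower. Within the chondrocyte list, Col2a1 and Acan lay lower at day 12 without overlap. Col2a1, the largest, was at 1811 to 3657 and then 632 to 995. Col10a1, a collagen of hypertrophic cartilage, lay higher, at 5.01 to 8.10 at day 0 and 23.7 to 52.7 at day 12. Col9a1 also lay higher without overlap, at 8.81 to 17.5 and then 25.3 to 43.3. Sox9 and Matn1 overlapped between the days. Of the glial and neuronal markers, Tubb3 alone lay lower without overlap. The part of these cell types in the result was not tested. In bulk RNA of this kind, fewer cells of a type and less RNA per cell cannot be told apart.

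Cdh11 was the other gene called higher. In WT cells it was at 748 and 973 normalised CPM at day 0 and at 1890 and 1870 at day 12, and in Def6-/- cells at 885 and 1053 and then at 1708 and 1938. The days did not overlap in either genotype. The fitted rise was 1.14 ± 0.20 on the log2 scale in WT cells (limma, adjusted p = 0.00555) and 0.91 ± 0.20 in Def6-/- cells (limma, adjusted p = 0.016). The call depended on the libraries and the setting. It was lost in WT cells with only the libraries compared, at 1.14 with a limma adjusted p of 0.0553, and in Def6-/- cells with CPM as deposited, at 0.91 with 0.0565. Without WT day 12 replicate 1 or replicate 2 the WT rise was 1.13 or 1.15, with adjusted p of 0.0603 and 0.0539 in limma. Without Def6-/- day 0 replicate 1 or 2, or day 12 replicate 1 or 2, the rise in Def6-/- cells was 0.79, 1.04, 1.0 and 0.82, with adjusted p of 0.148, 0.0553, 0.0794 and 0.139. Without WT day 0 replicate 1 the WT rise was 0.95 and without replicate 2 it was 1.33, and both were called. A few unproven gene models lie within Cdh11 on its own strand, and reads there may be counted for either.

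Cdh2, the other classical cadherin of osteoblasts, did not follow Cdh11. It was at 88.7 and 123 normalised CPM in WT cells at day 0 and at 89.4 and 96.4 at day 12, and at 103 and 154 in Def6-/- cells at day 0 and at 117 and 100 at day 12. The days overlapped in both genotypes. The log2 difference was -0.17 ± 0.24 in WT cells (95% interval -0.73 to 0.39) and -0.22 ± 0.24 in Def6-/- cells (-0.77 to 0.34). As a description, the ratio of Cdh11 to Cdh2 per kb was 5.87 to 7.35 in the 4 libraries of day 0 and 12.5 to 18.1 in the 4 of day 12. An antisense gene overlaps Cdh2, and the strand setting of the counting is not given in the sources used here.

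With all libraries, neither connexin was called in the day comparison. Gja1 was at 166 and 245 normalised CPM in WT cells at day 0 and at 201 and 198 at day 12. Without Def6 it was at 229 in both libraries of day 0 and at 253 and 241 at day 12. The WT values of day 12 lay between the 2 values of day 0, while in Def6-/- cells day 12 lay higher without overlap. Its log2 difference was -0.02 ± 0.20 in WT cells (95% interval -0.47 to 0.44), a sign that turned under other scalings, and 0.11 ± 0.20 in Def6-/- cells (-0.35 to 0.57). Gjc1 was the gene that lay lower at day 12. It was at 25.9 and 35.7 in WT cells at day 0 and at 18.8 and 20.1 at day 12, and at 26.6 and 33.5 in Def6-/- cells at day 0 and at 22.5 and 24.5 at day 12. Its log2 difference was -0.62 ± 0.24 in WT cells (limma, adjusted p = 0.113) and -0.33 ± 0.24 in Def6-/- cells (limma, adjusted p = 0.397). Without WT day 0 replicate 1 the WT difference was -0.84, and without replicate 2 it was -0.40. Whether Gjc1 passed the threshold in WT cells depended on the WT day 0 libraries that were kept. The ratio of Gja1 to Gjc1 per kb was 4.66 to 6.26 at day 0 and 7.16 to 8.21 at day 12.

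Ctnnb1 varied least among the 6, with a highest value 1.35 times its lowest over the 8 libraries, against 13.1 times for Panx3. It was at 741 and 792 normalised CPM in WT cells at day 0 and at 946 and 960 at day 12. Cells without Def6 had it at 782 and 767 at day 0 and at 1001 and 940 at day 12. Day 12 lay above day 0 without overlap in both genotypes. The log2 differences of 0.31 ± 0.16 in WT cells (limma, adjusted p = 0.21) and 0.32 ± 0.16 in Def6-/- cells (limma, adjusted p = 0.211) did not pass the threshold. The spread within WT day 0 entered both tests. Without WT day 0 replicate 2 the difference in WT cells was 0.36, and without replicate 1 it was 0.27. In Def6-/- cells it was 0.32 in both of these fits. Whether Ctnnb1 passed the threshold depended, in both genotypes, on the WT day 0 libraries that were kept.

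**Figure D2:**
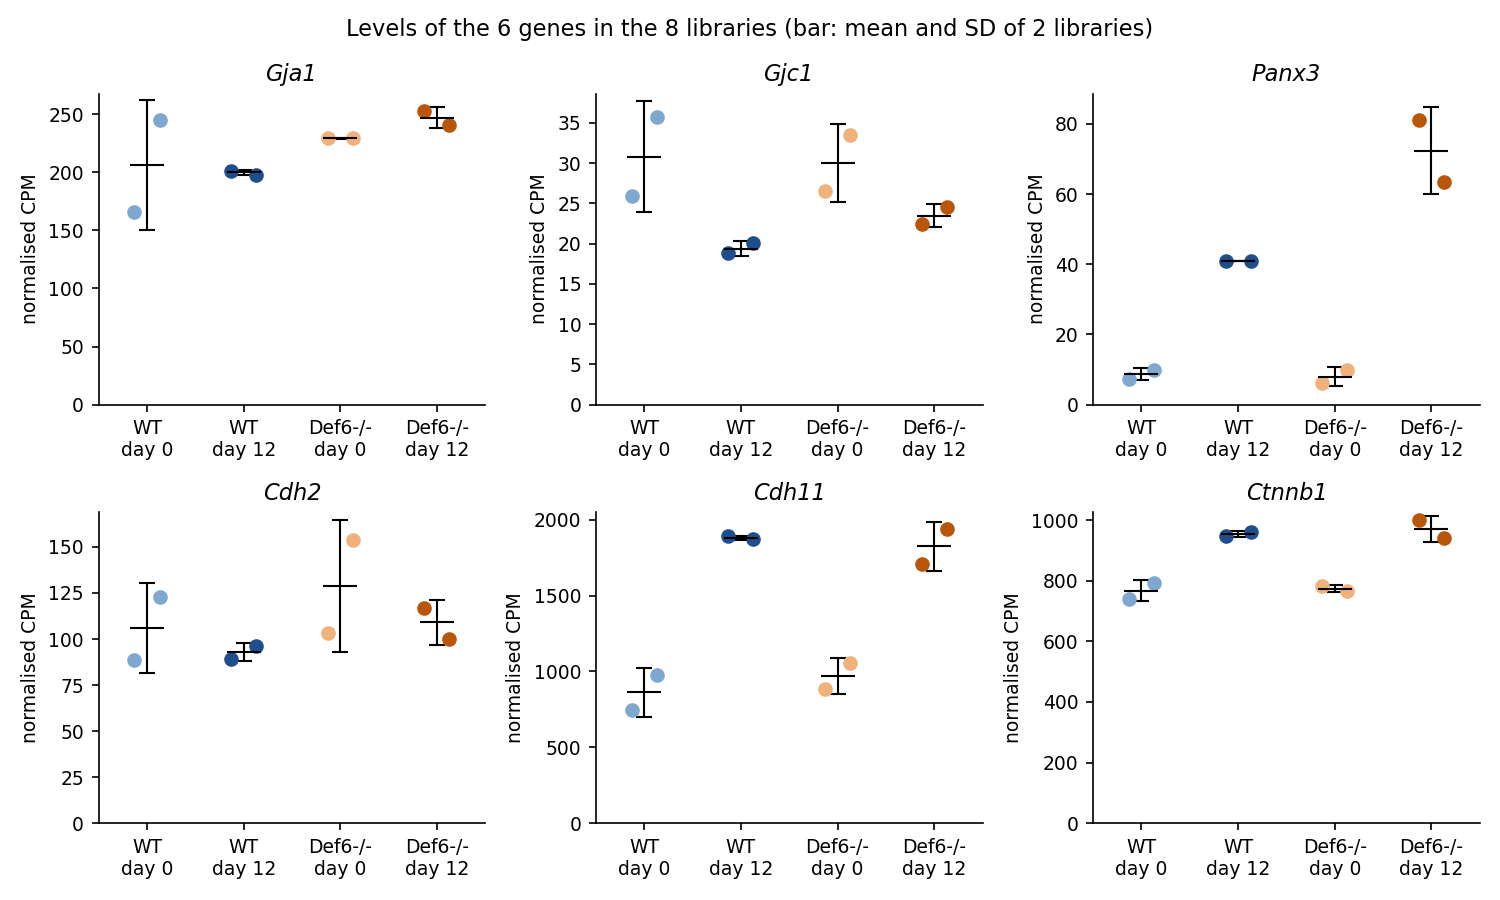
Normalised CPM (y axis, from 0) of the 6 genes in the 4 groups (x axis), with points for the 2 libraries of a group, a horizontal bar for the mean and error bars for the SD. Panx3 and Cdh11 lie higher in all day 12 libraries, at 41.0 to 81.0 and 1708 to 1938, and the 2 WT libraries of day 0 are widely spread for Gja1, at 166 and 245.

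The genotype comparison asked whether loss of Def6 alters these genes in precursors and in cells after osteogenic culture. At day 0 none of the 6 was called by the rule of the study, an unadjusted p under 0.05 with over 1.2-fold, against 1.13% of all genes tested called higher and 1.21% lower. The values of the genotypes overlapped for all 6 genes, while 11.8% of all genes lay higher in both Def6-/- libraries and 10.9% lower. Of all genes tested, 1 passed at an adjusted p under 0.05, which is 0.00810%. Differences of Def6-/- from WT cells at day 0 were 0.18 for Gja1 (95% interval -0.28 to 0.64), 0.18 for Cdh11 (-0.28 to 0.64) and 0.27 for Cdh2 (-0.29 to 0.82). They were -0.12 for Panx3 (-0.75 to 0.52), -0.03 for Gjc1 (-0.58 to 0.53) and 0.02 for Ctnnb1 (-0.35 to 0.38), and the sign of the last pair turned under another scaling. The values of Gja1, Cdh11 and Cdh2 rest on the WT libraries that stood apart. Without WT day 0 replicate 2, Gja1 at 0.46, Cdh2 at 0.50 and Cdh11 at 0.37 were called by the rule, and so were 4591 genes in place of 289. Without WT day 0 replicate 1 the same 3 genes were at -0.10, 0.03 and -0.01, and none was called.

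At day 12 Panx3 was called higher in Def6-/- cells. It was 1 of 6 called higher, against 0.753% of all genes tested, and 0 of 6 were lower, against 0.648%. The 2 Def6-/- libraries, at 81.0 and 63.5 normalised CPM, lay above both WT libraries, at 41.0 each, and the ratio of the means was 1.76. The log2 difference was 0.79 ± 0.28 (95% interval 0.15 to 1.43), with an unadjusted limma p of 0.0206 and an adjusted p of 1, so that it did not pass a correction over all genes. A single gene did, again 0.00810%. Panx3 was called in 16 of 19 alternatives, at 0.62 to 0.97, with limma, edgeR or DESeq2 adjusted p between 0.489 and 1. The call was lost without WT day 12 replicate 1 or 2, at 0.79 with unadjusted limma p of 0.0777 and 0.0775, and without Def6-/- day 12 replicate 1, at 0.62 with 0.139.

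Marker sums that did not overlap between genotypes at day 12 were those of osteoblasts, at 80954 and 95634 in WT cells and 113215 and 97395 in Def6-/- cells, of adipocytes, at 293 and 305 and then 402 and 409, and of chondrocytes, at 978 and 1229 and then 927 and 851. The low sums of glia and neurons, at 18.5 and 14.4 and then 19.2 and 23.7, and of muscle, at 6.26 and 7.38 and then 4.81 and 5.81, did not overlap either. Endothelial and epithelial sums overlapped, as did the macrophage sums, at 5707 and 2817 and then 3499 and 3000. Of the chondrocyte markers, Col2a1 alone did not overlap, at 780 and 995 and then 729 and 632. Of the osteoblast markers, Col1a1, Spp1 and Dmp1 overlapped, and the others lay higher in Def6-/- cells. Col1a1, the largest of them, was at 43744 and 54555 in WT cells and 62201 and 52850 in Def6-/- cells. None of the 10 osteoblast markers was at 0 in all libraries, and their part in the difference of Panx3 was not tested. Gja1 and Panx3 are among the osteoblast genes that the study displayed after comparing the genotypes at day 12, so the direction of these genes at that time is not independent of that display.

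The other 5 genes were not called at day 12. Gja1, Gjc1 and Cdh2 also lay higher in both Def6-/- libraries than in both WT libraries, which with Panx3 made 4 of 6, against 15.0% of all genes, and 0 of 6 lay lower, against 17.7%. Their log2 differences were 0.31 ± 0.20 for Gja1 (95% interval -0.15 to 0.77), 0.26 ± 0.24 for Gjc1 (-0.29 to 0.81) and 0.22 ± 0.24 for Cdh2 (-0.33 to 0.78). When the 4 libraries of day 12 alone were fitted, Gja1 was called at the same 0.31, with an unadjusted limma p of 0.0113 and an adjusted p of 0.994. In that fit 553 of all genes were called in place of 173. Cdh11 and Ctnnb1 overlapped between genotypes, at -0.05 ± 0.20 (95% interval -0.51 to 0.41) and 0.03 ± 0.16 (-0.34 to 0.39).

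The change from day 0 to day 12 was larger in Def6-/- than in WT cells for Panx3, by 0.91 ± 0.40 on the log2 scale (95% interval 0.01 to 1.81), with an unadjusted limma p of 0.0486 for the interaction and an adjusted p of 1. It was 1 of 6 called higher, against 0.591% of all genes tested, and 0 of 6 were called lower, against 0.470%. No gene passed an adjusted p under 0.05 for the interaction (0.00%) in limma, edgeR or DESeq2, while 131, 129 and 44 genes had an unadjusted p under 0.05. The Panx3 interaction was called in 6 of 18 alternatives. It was not called without WT day 0 replicate 2, at 0.73, without WT day 12 replicate 1 or 2, at 0.91 each, without Def6-/- day 0 replicate 1, at 0.61, or without Def6-/- day 12 replicate 1 or 2, at 0.74 and 1.08. The other 5 genes had interactions between -0.23 ± 0.29 for Cdh11 and 0.29 ± 0.34 for Gjc1, none of them called.

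**Figure D3:**
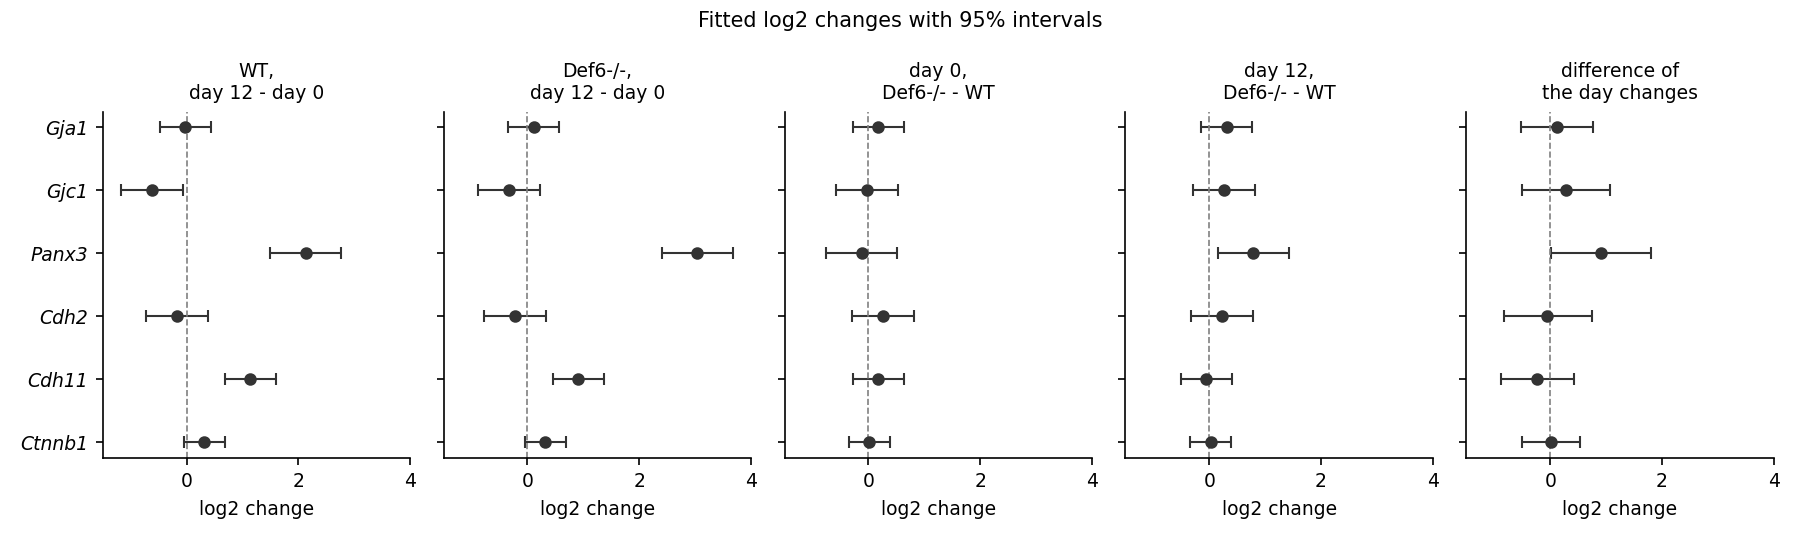
Log2 changes of the 6 genes with 95% intervals from the limma fit, in 5 panels for the day change in WT cells, the day change in Def6-/- cells, the genotype difference at each day and the difference of the day changes. Intervals for Panx3 and Cdh11 lie above 0 in both day panels, and in the panel for genotype at day 12 that of Panx3, 0.15 to 1.43, lies above 0.

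**Figure D4:**
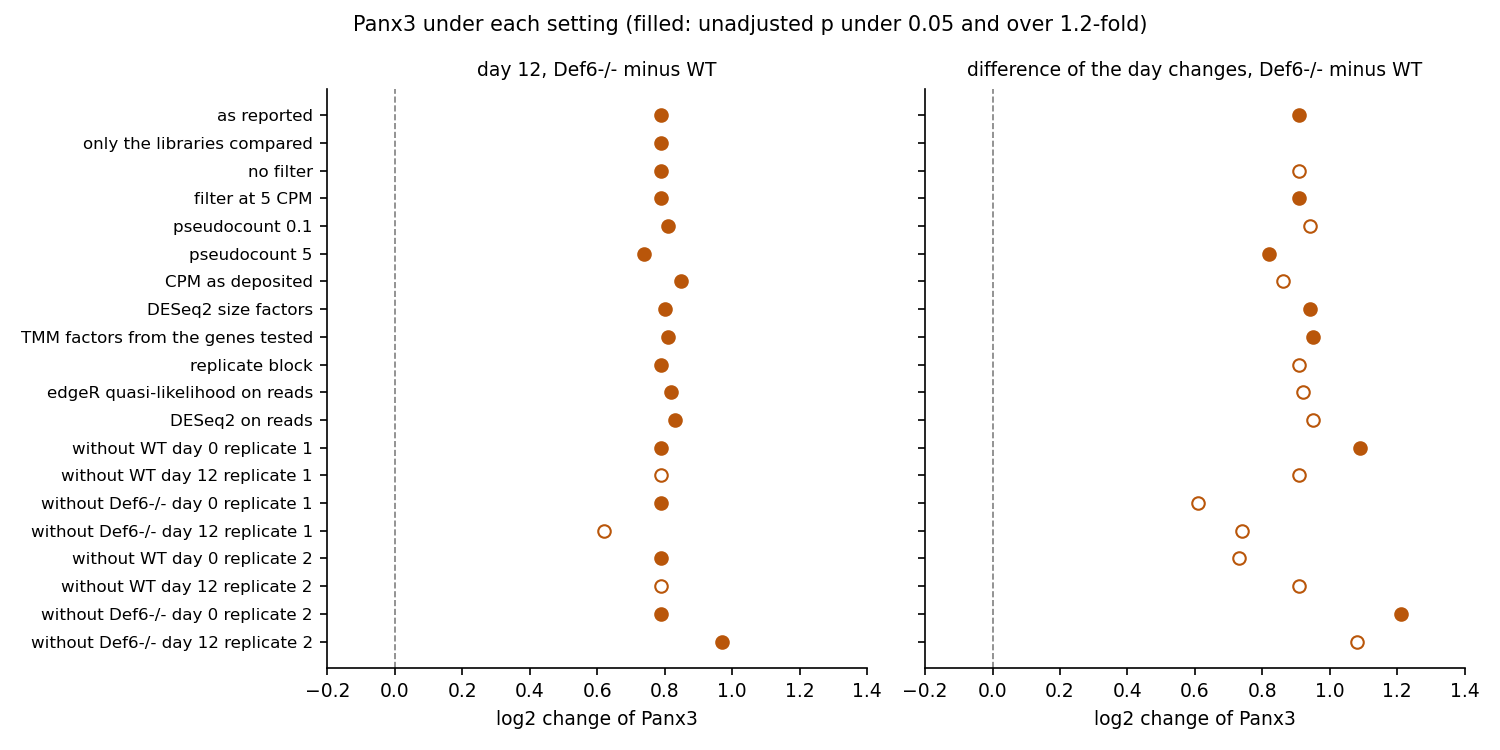
Log2 change of Panx3 (x axis) for the genotype difference at day 12 and for the difference of the day changes, under the reported setting and each alternative (rows), with filled points where the unadjusted p was under 0.05 and the change over 1.2-fold. Points run from 0.62 to 0.97 at day 12 and from 0.61 to 1.21 for the difference of the day changes.

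Over the 8 libraries the 6 genes fell into patterns that are given as a description, since the libraries share genotype and day. Log2 levels of Panx3, Cdh11 and Ctnnb1 moved together, with Pearson's r of 0.94 for Panx3 and Cdh11, 0.97 for Panx3 and Ctnnb1 and 0.95 for Cdh11 and Ctnnb1. Gjc1 moved against them, at -0.67, -0.69 and -0.75, and with Cdh2 at 0.72. Gja1 lay closest to Cdh2, at 0.62. The 3 of 12348 genes most like Gja1 were Polg2, Paip2b and Mapk8ip3, at r of 0.961, 0.958 and 0.954. For Gjc1 they were Mms22l, Zfp202 and 4933404O12Rik, at 0.974, 0.967 and 0.966, and for Cdh2 they were Kifc5b, Bmp2k and Gm17801, at 0.954, 0.930 and 0.924. For Cdh11 they were Smarca2, Thbs2, the gene of thrombospondin 2, and Efs, at 0.998, 0.997 and 0.996. For Ctnnb1 they were Pde1a, Grina and Dio2, at 0.998, 0.997 and 0.995. For Panx3 they were Cacnb3, at 0.995, then Smpd3, which encodes neutral sphingomyelinase 2, and Bglap, both at 0.991. Some of the genes named for likeness were low in every library. Polg2 was at 1.18 to 4.57 normalised CPM, Kifc5b at 1.18 to 5.64, Zfp202 at 1.99 to 8.73 and Gm17801 at 2.87 to 8.45.

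Other channel and adhesion genes were counted from lists of related genes. Of 20 other connexins and pannexins, 2 passed the filter, and 4 had no read in any library. Gjb2, the gene of connexin 26, fell with day in both genotypes. It was at 17.3 and 12.7 normalised CPM in WT cells at day 0 and at 0 and 0.820 at day 12, and at 15.8 and 12.3 and then 0.802 and 1.25 in Def6-/- cells. Its log2 changes were -3.55 and -2.90, with limma adjusted p of 0.000602 and 0.0016. Some of its day 12 libraries held no or few reads, so the fitted size depends on the pseudocount. Panx1, the broadly expressed pannexin, was not called, at 0.37 in WT and 0.49 in Def6-/- cells. The median change of these 2 genes in WT cells, -1.59 against -0.04 over all genes tested, is only the midpoint of Gjb2 and Panx1. The 2 genes went in opposite directions, at -3.55 and 0.37.

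Of 20 other cadherins, 5 passed the filter, and the E-cadherin gene Cdh1, at 0.392 to 2.41, and the endothelial Cdh5, at 0 to 4.51, did not. None of the 5 was called with day in WT cells, where Cdh10 had the smallest p, at -1.40 on the log2 scale with a limma adjusted p of 0.114. With Def6 deleted 2 of 5 fell, against 6.20% of all genes. Cdh6, the gene of K-cadherin, changed by -2.12 and Cdh3, the gene of P-cadherin, by -0.84, with limma adjusted p of 0.0205 and 0.0359. In WT cells their differences were -0.54 and -0.42, and the interactions, at -1.59 and -0.42, had unadjusted limma p of 0.0518 and 0.224. The median over the 5 genes was -0.42 (WT) and -0.84 (Def6-/-). Cdh13 encodes a cadherin anchored by lipid without a cytoplasmic tail. It was higher in Def6-/- cells at day 12 by 1.11, at 5.61 and 7.89 against 3.13 and 2.05. The unadjusted limma p was 0.0405 and the adjusted p was 1. At day 0 Cdh13 also lay higher without overlap, at 2.31 and 7.04 against 1.96 and 1.46. That difference was 0.94, with an unadjusted limma p of 0.0743, and the interaction was 0.17.

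The plaque of the adherens junction, where catenins tie cadherins to actin, had more genes called lower than higher at day 12. Of 19 plaque and nectin genes, 5 of them listed under older symbols, 17 were tested. With day, 1 rose and 5 fell in WT cells, against 12.1% and 6.61% of all genes, and 1 rose and 8 fell in Def6-/- cells, against 11.0% and 6.20%. The median change of the list in WT cells was -0.58 without WT day 0 replicate 1 and -0.29 without replicate 2. In Def6-/- cells it was -0.62 in both of these fits. The gene that rose was Ctnna2, which encodes the αN form of α-catenin, from 3.92 and 3.27 normalised CPM to 35.9 and 34.9 in WT cells and from 2.70 and 5.64 to 25.7 and 39.9 in Def6-/- cells. Its log2 changes were 2.99 and 2.74, with limma adjusted p of 0.000825 and 0.00123. The α-actinin genes Actn1 and Actn4 fell, with changes of -1.13 and -1.09 in WT cells and of -1.41 and -1.28 in Def6-/- cells. Pvrl2, the gene of nectin-2, changed by -1.34 and -1.16 (limma, adjusted p = 0.0153 and 0.0289). Ctnna1, which encodes the common α-catenin, was at -0.52 and -0.51, with limma adjusted p of 0.0507 and 0.0578, and was not called. The nectin gene Pvrl1, now named Nectin1, changed by -0.68 and -1.46 (limma, adjusted p = 0.0477 and 0.00182), and its interaction of -0.77 had an unadjusted limma p of 0.0255 and an adjusted p of 1. The median change of the 17 was -0.36 in WT and -0.62 in Def6-/- cells, against -0.04 and -0.07 over all genes. With all libraries, no gene of this list was called between genotypes at either day. At day 0, 7 of 17 lay higher in both Def6-/- libraries, against 11.8% of all genes. The median genotype difference at day 0 was 0.26, and it was 0.08 without WT day 0 replicate 1 and 0.27 without replicate 2.

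Of 22 genes that degrade β-catenin or join it in the nucleus, 21 were tested. With day, 2 of 21 rose in each genotype, near the 12.1% and 11.0% of all genes, and none fell. The median change of the 21 in WT cells was -0.03 without WT day 0 replicate 1 and 0.44 without replicate 2. With all libraries, the 2 that rose in both genotypes were Tle2, which encodes a Groucho corepressor, and Tcf7, which encodes the DNA-binding partner TCF1. Tcf7 was at 3.53 and 4.73 normalised CPM in WT cells at day 0 and at 9.68 and 12.3 at day 12, and at 4.24 and 4.23 and then 28.1 and 20.3 in Def6-/- cells. At day 12 the Def6-/- libraries lay above the WT libraries, by 1.06 on the log2 scale, with an unadjusted limma p of 0.0067 and an adjusted p of 1. The interaction was 1.03, with an unadjusted limma p of 0.0401 and an adjusted p of 1. With all libraries, Tcf7 was the only gene of the 21 called between genotypes at day 12, and none was called at day 0. The shares of all genes called at day 12 were 0.753% higher and 0.648% lower, and at day 0 1.13% and 1.21%. For the interaction they were 0.591% and 0.470%. The median genotype difference at day 0 was 0.06, and it was -0.13 without WT day 0 replicate 1 and 0.46 without replicate 2. Without replicate 2 the interaction of Tcf7 was 0.86 and not called. The median change of the 21 was 0.15 in WT and -0.04 in Def6-/- cells. Lef1, another partner of β-catenin, was below the filter, at 0.415 to 4.32.

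All 10 genes of cadherin processing and turnover, among them proteases and the trafficking genes Rab11a and Vps35, were tested. With day, 1 of 10 was called higher in WT cells, against 12.1% of all genes, and 0 of 10 lower, against 6.61%. Mmp14, which encodes a membrane-bound matrix metalloproteinase, rose by 0.72 on the log2 scale in WT cells (limma, adjusted p = 0.0178) and was at 0.54 in Def6-/- cells (0.0567). Furin, a protease that matures cadherin precursors, was at 0.49 in WT cells (limma, adjusted p = 0.0667). The median change of the 10 was -0.09 in Def6-/- cells, against -0.07 over all genes. In WT cells the median was -0.09 without WT day 0 replicate 1 and 0.27 without replicate 2. With all libraries, none of the 10 was called between genotypes. The median genotype difference at day 0 was 0.21, and it was 0.10 without WT day 0 replicate 1 and 0.26 without replicate 2.

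**Figure D5:**
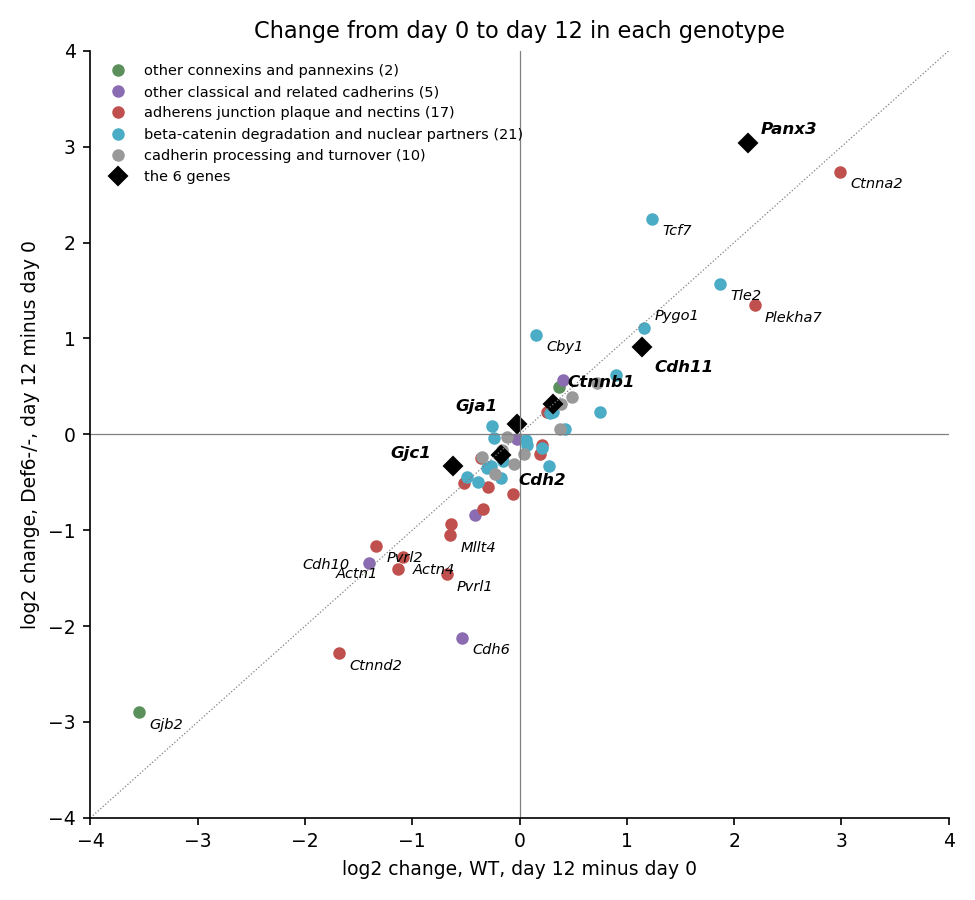
Log2 change from day 0 to day 12 in WT cells (x axis) and in Def6-/- cells (y axis), with diamonds for the 6 genes and circles for the tested genes of 5 related lists, and a dotted line where both changes are equal. Panx3 lies at 2.13 and 3.04 near Ctnna2 at 2.99 and 2.74, and Gjb2 lies at the lower left at -3.55 and -2.90.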

How the data were processed

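Poly-A+ RNA of 8 libraries was sequenced, 2 for each genotype and day. According to the submitters' processing notes and the methods of the study, reads were trimmed with fastp, aligned to mm10 with HISAT2 and counted with HTSeq, and the authors deposited CPM values made with edgeR, which are relative to all reads. The annotation and strand setting are not given in the sources used here. Of 114821 positive values, 99.957% were whole multiples of 1 read within 0.01 read, and reads were recovered on that basis. The 49 others lay in 9 macrophage and osteoclast marker genes and in none of the 6 genes.

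CPM were rescaled to reads on genes with TMM factors (edgeR 4.0.16). A gene was tested if any group's mean of the deposited CPM reached 1, with limma 3.58.1 (lmFit, contrasts.fit, eBayes with trend) on log2(CPM + 1), in R 4.3.3. The model had 1 mean for each of 4 groups and used all 8 libraries, which left 4 residual degrees of freedom. Day comparisons were called at a Benjamini-Hochberg adjusted p under 0.05. Genotype comparisons and the interaction were called by the rule of the study, an unadjusted p under 0.05 and over 1.2-fold, with the adjusted p beside it. The script was tested on simulated data. Alternatives were edgeR's quasi-likelihood test and DESeq2 1.42.0 on recovered reads, other scalings, filters and pseudocounts, a replicate block, only the libraries compared, and each library left out. TMM factors from the genes tested alone, and medians for lists without each WT day 0 library, were added after seeing the data. The 6 genes and all lists were chosen with earlier results of these data known. Genes eligible to be named were the 6, Def6, in each list up to 4 with the smallest p for day in WT cells and up to 2 for each genotype comparison, any with an adjusted p under 0.05 for genotype or the interaction, and the 3 genes most correlated with each of the 6. Ctnna1, Cdh1, Cdh5, Lef1 and the cell type markers named singly fall outside this rule and were chosen after their values were seen. Positions and lengths are from GENCODE vM21 (GRCm38), upstream sequences from RefSeq. Intervals cover the spread between libraries only. Python 3.11.15 was used for tables.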

Additional observations from a re-analysis of the deposited data

Results flagged for a closer look

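Panx3 was marked for a closer look because the size of its rise with culture was not the same in both genotypes by the interaction test. The change was 0.91 larger on the log2 scale in Def6-/- than in WT cells, with an unadjusted p of 0.0486 for the interaction in limma and an adjusted p of 1 over all genes. The difference was above 0 in all 18 alternatives, at 0.61 to 1.21, and passed the unadjusted rule in 6 of them.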

How the results depend on the processing

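Of 324 changes of the 6 genes refitted without leaving out a library, 306 kept their direction and their side of the threshold, 8 lost a call, 1 gained a call and 9 changed sign. None of the 9 was a called change. Leaving out 1 library gave 193 of 240 with direction and call kept, 15 lost, 10 gained and 22 with a changed sign. With only the libraries compared, 1 of the 6 genes was called in place of 2 for day in WT cells and 2 in place of 1 for genotype at day 12. With CPM as deposited, 1 was called in place of 2 for day in Def6-/- cells. For the interaction, 0 were called in place of 1 without a filter, with a pseudocount of 0.1, with CPM as deposited, with edgeR, with DESeq2 and with an adjusted p, which also left 0 at day 12. Leaving out a library gave 1 to 3 genes called for day in WT cells, 1 to 3 in Def6-/- cells, 0 to 3 for genotype at day 0, 0 to 2 at day 12 and 0 to 2 for the interaction. Where this leaves a group with 1 library, that library is assumed to vary like the others. The cause was not tested.

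Signs turned for small changes. Gja1 with day in WT cells was 0.01 with CPM as deposited and 0.02 with DESeq2's size factors and with TMM factors from the genes tested. At day 0 Gjc1 was 0.08 with CPM as deposited, and Ctnnb1 was -0.005 with DESeq2's size factors and with DESeq2, and -0.01 with TMM factors from the genes tested. Cdh11 at day 12 was 0.04 and the interaction of Ctnnb1 was -0.02 with CPM as deposited. Leaving out a library gave ranges across 0 with day for Gja1 (-0.30 to 0.27) and Cdh2 (-0.41 to 0.07) in WT cells and Cdh2 (-0.50 to 0.07) in Def6-/- cells. At day 0 the ranges were -0.10 to 0.46 for Gja1, -0.25 to 0.20 for Gjc1, -0.42 to 0.18 for Panx3, -0.02 to 0.55 for Cdh2, -0.01 to 0.37 for Cdh11 and -0.03 to 0.06 for Ctnnb1. At day 12 they were -0.14 to 0.04 for Cdh11 and -0.02 to 0.07 for Ctnnb1, and for the interaction -0.16 to 0.40 for Gja1, -0.33 to 0.24 for Cdh2 and -0.04 to 0.06 for Ctnnb1.

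Same-numbered libraries of different groups deviated together with r of 0.325 between WT and Def6-/- cells at day 0, 0.152 between the days in Def6-/- cells and 0.003 to 0.089 for the other pairs of groups. No source used here says that a number marks a shared litter or day, so the block was not used for the reported values. With a replicate block, 2, 2, 0, 1 and 0 of the 6 genes were called for day in WT cells, day in Def6-/- cells, day 0, day 12 and the interaction, and 2587, 2326, 363, 206 and 174 of all genes in place of 2307, 2130, 289, 173 and 131. The Panx3 interaction was 0.91 under the block, with an unadjusted limma p of 0.0509.

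Counts over all genes moved by over 1.5 times in some settings. With only the libraries compared they were 1040 for day in WT cells, 4126 in Def6-/- cells, 100 for genotype at day 0 and 553 at day 12. Without a filter they were 443 at day 0, 450 at day 12 and 335 for the interaction, with a filter at 5 CPM 171, 75 and 52. DESeq2 called 85 at day 12 and 44 for the interaction, and CPM as deposited 191 at day 0. An unadjusted p gave 4125 and 3809 with day, and an adjusted p 1, 1 and 0 for the genotype comparisons and the interaction. Leaving out a library gave 828 to 5711 and 865 to 4495 with day, 158 to 4591 at day 0, 110 to 449 at day 12 and 89 to 3303 for the interaction. The share of calls that were higher in Def6-/- cells moved with CPM as deposited from 48.1% to 72.3% at day 0 and from 53.8% to 70.0% at day 12. Depth limited Panx3 most, at 16 to 28 reads per library at day 0.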
